A study of Mus musculus with 6 samples.

Results

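Amino acid transporters of the plasma membrane and the lysosome were examined in macrophages that lacked progranulin (PGRN), a secreted glycoprotein encoded by Grn. The genes were all protein-coding entries whose symbol begins with Slc1a, Slc3a, Slc7a, Slc36a, Slc38a or Slc43a, leaving out Slc7a2 and Slc7a11, which gave 41 of the 54532 genes in the table. The rule itself uses gene symbols and no measured value. Of the 41 genes, 16 had a mean of at least 1 FPKM (fragments divided by the length of the gene model and by the size of the library) over the 6 libraries and were tested, another 16 were above 0 but below that level, and 9 were listed at 0 in all 6 libraries. One of the tested genes, Slc7a6os, carries the family prefix because it lies beside Slc7a6 and does not encode a transporter.

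Amino acids cross membranes through solute carriers with overlapping substrates. Slc1a5 and the Slc38 family take up small neutral amino acids such as glutamine, and large neutral amino acids such as leucine and tryptophan enter in exchange for them through Slc7 light chains that reach the cell surface only when bound to the heavy chain Slc3a2. Carriers on the lysosome return amino acids from digested protein to the cytosol, where supply is sensed by the mTORC1 kinase complex, and macrophages draw on both routes when they are activated and when they digest what they have engulfed.

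Transcripts of 3 wild type (WT) and 3 PGRN knockout (PGRN KO) libraries were compared, with replicate numbers 1 to 3 and 4 to 6. Both groups were labelled strain C57BL/6J and both were exposed to live Candida albicans for 6 hours at 1 fungal cell per macrophage, with 2000000 cells per well, so that no library shows the level before the fungus. The labels give macrophages of the peritoneal cavity, whereas the text of the study speaks of macrophages grown from bone marrow and also gives a different ratio of fungal cells to macrophages, and the labels were followed here. PGRN KO mice and WT mice came from different suppliers according to the methods, so that genotype and colony cannot be told apart. Nothing says that the libraries of a group came from separate animals, and p-values therefore measure only the spread between these samples, which may be technical.

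The libraries held 15996786 to 17551619 counted fragments. Grn was at 323 to 337 FPKM in WT and at 0 to 0.0167 FPKM in PGRN KO. All 8 macrophage markers examined were expressed (Mertk was higher and Csf1r lower in PGRN KO), with summed levels of 11618 to 12561 FPKM in WT and 10445 to 14377 FPKM in PGRN KO, and Gata6, which marks resident peritoneal macrophages, was at 3.78 to 4.26 and 3.84 to 5.07 FPKM, although Timd4, another such marker, was at most 0.204 FPKM. Of the other resident peritoneal markers examined, Icam2 was higher in PGRN KO (limma, adjusted p 0.00914), with means of 3.10 FPKM in WT and 5.10 in PGRN KO. Cd9 (319 and 277 FPKM) and Prg4 (14.2 and 12.7 FPKM) did not pass the same test. PGRN KO replicate 6 stood apart from the other 5 libraries in a way that followed gene length. Spearman's rho between the deviation of a gene from its mean and the length of its model was -0.471 here, whereas the others had values of 0.151 to 0.243 (over genes, which do not count as independent). In bulk RNA, fewer cells of a type and less RNA per cell cannot be told apart.

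To determine which transporters differed between genotypes, all 8882 genes with a mean of at least 1 FPKM were fitted together with limma on log2(FPKM + 1), the scale of every log2 change given unless voom is named. Slc38a2, Slc1a5, Slc7a5 and Slc38a1 passed as lower in PGRN KO, at 51.5%, 57.8%, 62.7% and 68.1% of the WT level. All 4 carry neutral amino acids across the cell surface, but this trait did not set them apart. Slc36a4 and the cationic carrier Slc7a1 were at 67.0% and 69.1% of WT without passing, and the neutral carrier Slc7a8 was at 94.2%. Slc43a3, whose family is grouped with amino acid carriers but which is known as a transporter of purine nucleobases, rose 4.24-fold. Thus 5 of the 16 tested genes passed an adjusted p of 0.05, against 24.2% of all tested genes. Among the 16, 4 were lower, against a background of 13.8%, and 1 was higher, against 10.4%. For 11 of the 16 genes all PGRN KO libraries lay on one side of all WT libraries, 9 below and 2 above. Of all tested genes 48.8% were separated in this way, 27.6% below and 21.2% above. Slc43a3, the 1 higher gene and 1 of the 2 separated above, entered the test only through its PGRN KO level (WT mean 0.628 FPKM). On the log2 scale the median change was -0.24 over the 16 genes and -0.03 over all 8882. Leaving out PGRN KO replicate 6 gave 7 lower genes and 1 higher, against backgrounds of 25.1% and 16.2%. Leaving out WT replicate 1, 2 or 3 gave 3 lower genes and 1 higher each time, against 4.3%, 4.99% and 5.47% of all genes that were lower and 3.73%, 4.64% and 4.47% that were higher. Leaving out PGRN KO replicate 4 gave 4 lower genes (background 8.78%) and 1 higher (6.87%), and leaving out replicate 5 gave 5 lower (9.71%) and 1 higher (8.32%). At a mean of at least 5 FPKM, 5 of 10 tested members were lower and none was higher, where the backgrounds were 19.6% and 10.9%. With 3 against 3 libraries an exact two-sided permutation test of a single gene cannot give less than p = 0.1.

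**Figure D1:**
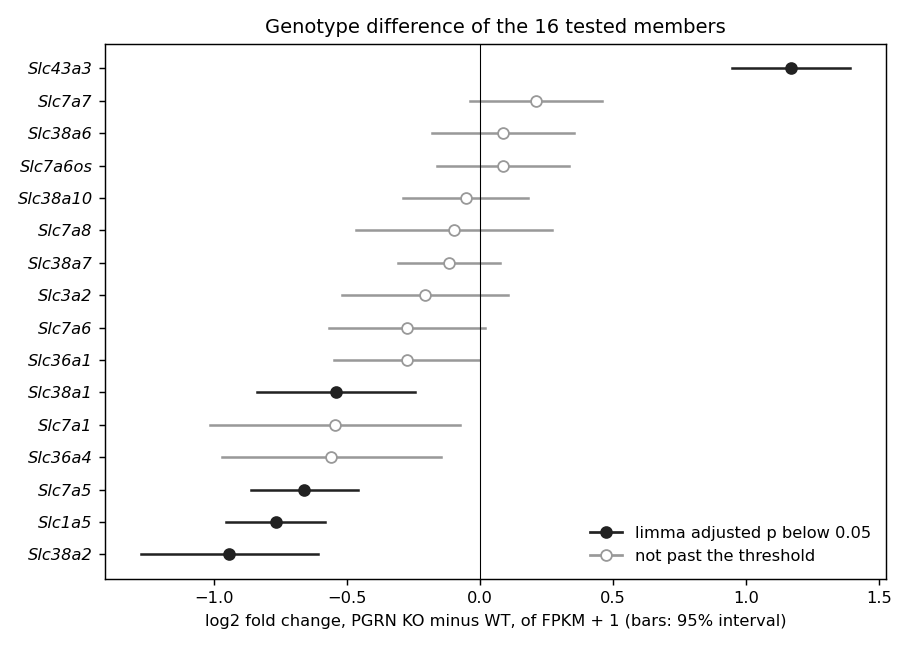
Log2 fold change (PGRN KO minus WT, of FPKM + 1) of each of the 16 tested genes, with the 95% interval from limma as bars; filled symbols mark an adjusted p below 0.05. Slc38a2, Slc1a5, Slc7a5 and Slc38a1 are the filled symbols on the left, at -0.94 to -0.54. The open symbols of Slc36a4 (-0.56) and Slc7a1 (-0.54) lie among them, and Slc43a3 lies alone at 1.17 on the right.

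Slc38a2 (SNAT2), a sodium-dependent carrier of small neutral amino acids, showed the largest fall in the main fit. Its level was 43.5, 42.4 and 41.0 FPKM in WT replicates 1, 2 and 3 and 24.05, 24.2 and 17.2 FPKM in PGRN KO replicates 4, 5 and 6. Every PGRN KO library was thus below every WT library, and replicate 6 was the lowest. The fitted change was -0.94 ± 0.14 on the log2 scale (SE, n = 3 libraries per group, limma, adjusted p 0.00583). After correction of each library for gene length it was -0.80. Without replicate 6 it was -0.785, and Slc1a5, at -0.791, then fell slightly more. Slc38a2 lies on chromosome 15 from 96687392 to 96699730 (GRCm38, minus strand). The 250 bases ahead of its start, from RefSeq on GRCm38.p6 (chr15:96699729-96699978, minus strand), are shown because this was the member that fell most in the main fit.

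Slc38a2: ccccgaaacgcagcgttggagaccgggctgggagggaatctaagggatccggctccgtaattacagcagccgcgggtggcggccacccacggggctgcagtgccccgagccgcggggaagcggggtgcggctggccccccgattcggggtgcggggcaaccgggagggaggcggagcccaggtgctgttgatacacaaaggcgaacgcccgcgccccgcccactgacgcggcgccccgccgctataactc

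This stretch has a GC content of 72.0% and 30 CG dinucleotides. It was searched on both strands for TGATGNAA, the core of the amino acid response element to which ATF4 binds with a C/EBP partner, for TCACGTGA, the core of the element bound by the lysosomal regulators TFEB and TFE3, and for the E-box CACGTG that this core contains. These letters occurred in 3.45%, 0.785% and 6.02% of the same windows over 32851 promoters, and none was in the Slc38a2 window, which says only that they are absent from these bases. Promoter entries were found for 12 of the 16 tested genes. Slc7a5, Slc1a5, Slc38a1 and Slc43a3 had none.

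Slc38a1 (SNAT1), a carrier of the same kind, is the neighbour of Slc38a2, 44.5 kb away on chromosome 15 (96571418 to 96642913, minus strand). It was at 26.0, 25.1 and 23.99 FPKM in WT and at 18.6, 18.6 and 14.0 FPKM in replicates 4, 5 and 6 of PGRN KO. The groups were separate, and replicate 6 was again the lowest library. Its log2 change of -0.54 ± 0.13 (SE) passed with limma at an adjusted p of 0.0235, and it passed in 9 of 15 alternatives (adjusted p over all 15, 0.00288 to 0.105). Its gene model of 17236 bases was the longest among the tested members, and after correction of each library for gene length the change shrank to -0.30 (adjusted p 0.0221). The exceptions were the fits that left out WT replicate 1, 2 or 3 (0.102, 0.0881 and 0.0703), used no filter on low values (0.0607), were made on a TPM scale (0.105) or took the sum of fragments as library size (0.0668). The ratio of Slc38a2 to Slc38a1 FPKM was 1.67 to 1.71 in WT and 1.23 to 1.30 in PGRN KO, chosen after the values were seen and given as a description.

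Slc1a5 (ASCT2), which exchanges neutral amino acids and is a main entry route for glutamine, had the tightest values of the genes that fell. It was at 42.8, 42.3 and 43.4 FPKM in WT and at 23.8, 24.9 and 25.6 FPKM in PGRN KO. The WT libraries spanned little more than 1 FPKM, and the gap to the PGRN KO libraries was many times the spread of either group. On the log2 scale it fell by 0.77 ± 0.08 (SE; limma, adjusted p 0.00185). The gene lies on chromosome 7 (16781340 to 16798274, plus strand). Slc1a5, Slc38a2 and Slc7a5 passed in all 15 alternatives, with adjusted p of 0.000418 to 0.0217, 0.000441 to 0.0374 and 0.00110 to 0.0304.

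**Figure D2:**
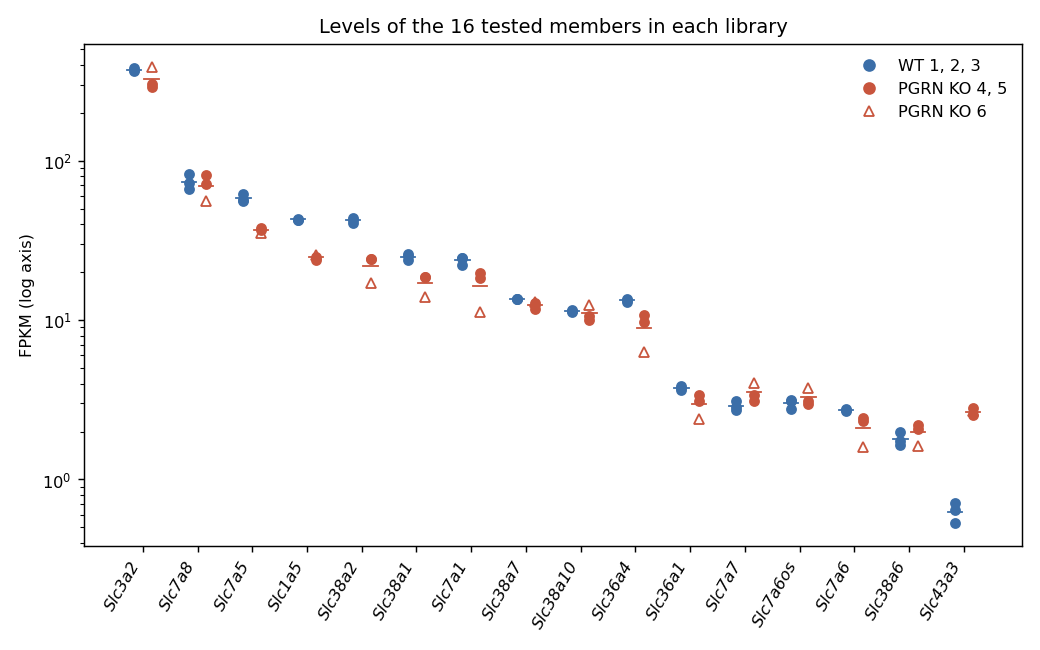
FPKM of the 16 tested genes in each library on a log axis, with WT in blue, PGRN KO replicates 4 and 5 in filled red, replicate 6 as an open triangle, and group means as short lines. Slc3a2 lies above 289 FPKM in every library, and the open triangle is the lowest PGRN KO point for 9 of the 16 genes and the highest for 6.

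Next, the heavy chain Slc3a2 (4F2hc, CD98 heavy chain) and its light chains were compared. Slc3a2 was the most abundant of the 41 genes and made up 52.8% to 54.7% of their summed FPKM in WT. It was at 372, 369 and 381 FPKM in WT and at 302, 289 and 389 FPKM in replicates 4, 5 and 6 of PGRN KO. Replicates 4 and 5 were below all WT libraries, whereas replicate 6 was above all of them. Its log2 change of -0.21 had a 95% interval of -0.52 to 0.10 and did not pass (limma, adjusted p 0.284). Without replicate 6 it was -0.34 with an adjusted p of 0.00376; Slc3a2 passed in this alternative only (range over the 15, 0.00376 to 0.548).

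Slc7a5 (LAT1), the light chain that carries leucine, tryptophan and other large neutral amino acids, fell in PGRN KO. It was at 55.9, 57.0 and 62.0 FPKM in WT and at 36.8, 37.6 and 35.2 FPKM in PGRN KO, on chromosome 8 (121881150 to 121907694, minus strand). The groups were well apart and replicate 6 lay beside replicates 4 and 5. The log2 change amounted to -0.66 ± 0.09 (SE; limma, adjusted p 0.00372).

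Slc7a8 (LAT2), the other abundant light chain for neutral amino acids, did not pass. It was at 72.3, 82.9 and 66.9 FPKM in WT and at 81.9, 71.2 and 56.2 FPKM in replicates 4, 5 and 6 of PGRN KO. The groups overlapped, and the log2 fold change of -0.10 had a 95% interval of -0.46 to 0.27 (limma adjusted p 0.679), with a sign that turned with the sum of fragments as library size and without replicate 6. The ratio of Slc7a5 to Slc7a8 FPKM was 0.773, 0.688 and 0.926 in WT and 0.450, 0.529 and 0.626 in PGRN KO, without overlap, a ratio chosen after the values were seen.

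The light chains Slc7a7 and Slc7a6, which exchange cationic for neutral amino acids, were far less abundant. Slc7a7 (y+LAT1), the gene mutated in lysinuric protein intolerance, was at 2.74, 2.86 and 3.09 FPKM in WT and at 3.41, 3.12 and 4.03 FPKM in PGRN KO (log2 change 0.21, 95% interval -0.04 to 0.46; limma, adjusted p 0.182). It shares 232 exon bases with Oxa1l on the opposite strand, and since no source used here says whether strand was used in counting, its values are uncertain. Slc7a6 was at 2.69, 2.74 and 2.75 FPKM in WT and at 2.31, 2.42 and 1.60 FPKM in PGRN KO (log2 change -0.27, 95% interval -0.57 to 0.02; limma, adjusted p 0.150). For both genes all PGRN KO libraries lay on one side of the WT libraries, but the differences did not pass the threshold.

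Of the 12 tested members with promoter entries, Slc7a7 alone had an amino acid response element core in its windows. It has several annotated starts, and windows of 30 bases around both matches are shown with the core in capitals and with the position of its first base relative to the annotated start of its entry (minus strand, chr14:54417923-54417952 and chr14:54418067-54418096, GRCm38.p6).

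Slc7a7, core at position -243: tagaagcTGATGCAAcagcttccccgaggg
Slc7a7, core at position -141: ccgcttgggctTGATGAAAggttcactggg

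Summed over Slc7a5, Slc7a6, Slc7a7, Slc7a8 and Slc7a10, the light chains were at 134, 146 and 135 FPKM in WT and at 124, 114 and 97.1 FPKM in PGRN KO. Slc3a2 exceeded this sum by a factor of 2.53 to 2.83 in WT, of 2.43 and 2.53 in PGRN KO replicates 4 and 5, and of 4.01 in replicate 6. Slc7a11, a further partner of Slc3a2, is not in these sums; with it the factor was 1.65 to 1.86 in WT and 1.68, 1.68 and 2.86 in PGRN KO. Replicate 6 therefore stood alone in this measure, with the highest heavy chain and the lowest light chain level of all libraries.

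**Figure D3:**
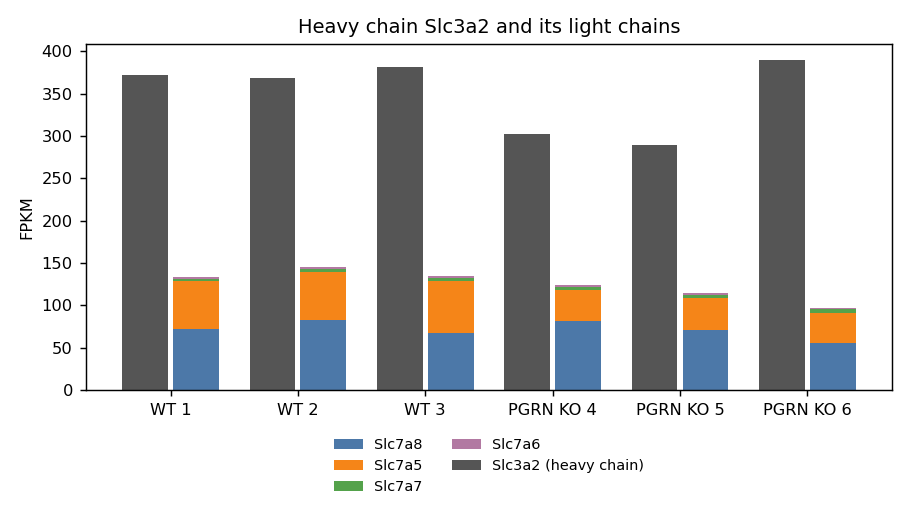
FPKM of the heavy chain Slc3a2 (grey bars) and of its light chains Slc7a8, Slc7a5, Slc7a7 and Slc7a6 (stacked bars) in each library. The orange share, Slc7a5, is 55.9 to 62.0 FPKM in WT and 35.2 to 37.6 FPKM in PGRN KO, while in PGRN KO replicate 6 the grey bar is the tallest and the stack the lowest.

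Slc7a1 (CAT1), which carries arginine, lysine and ornithine without a heavy chain, was at 24.4, 24.7 and 22.2 FPKM in WT and at 18.3, 19.7 and 11.2 FPKM in replicates 4, 5 and 6 of PGRN KO. All PGRN KO libraries were lower than any WT library, but the distance of replicate 6 from the other PGRN KO libraries was larger than that between the groups. Its log2 change of -0.54 ± 0.20 (SE) missed the threshold (limma, adjusted p 0.0900). It passed without replicate 6 (-0.31, adjusted p 0.0152) and after correction of each library for gene length (-0.36, adjusted p 0.0405), and in none of the other 13 alternatives (range over all 15, 0.0152 to 0.220). Its gene model of 11530 bases is longer than the median tested gene model of 3856 bases, as were those of 13 of the 16 genes.

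The tested Slc36 members, Slc36a4 and Slc36a1, were then compared together with Slc38a7 and Slc38a10, and none of these 4 passed the threshold. Slc36a4 (PAT4), a carrier with high affinity for proline and tryptophan, was at 13.5, 12.9 and 13.5 FPKM in WT and at 9.68, 10.7 and 6.33 FPKM in PGRN KO. The groups did not overlap and replicate 6 was lowest. The log2 change of -0.56 ± 0.17 (SE) lay just short of the threshold (limma, adjusted p 0.0570), and it passed in 6 of 15 alternatives (0.00703 to 0.171), among them the fits without PGRN KO replicate 5 (0.0418) and without replicate 6 (0.00703).

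Slc36a1 (PAT1), which exports small amino acids from lysosomes together with protons, was at 3.88, 3.76 and 3.63 FPKM in WT and at 3.10, 3.37 and 2.40 FPKM in PGRN KO (log2 change -0.27 ± 0.12 (SE); limma, adjusted p 0.126). The libraries were separate by group, yet the gene passed in none of 14 alternatives (adjusted p 0.0938 to 0.370). Slc38a7 (SNAT7), which exports glutamine and asparagine from lysosomes, was at 13.6, 13.6 and 13.5 FPKM in WT and at 11.7, 12.8 and 12.9 FPKM in PGRN KO (log2 change -0.12, 95% interval -0.31 to 0.08; limma, adjusted p 0.332). Slc38a10, a less studied member of the same family, was at 11.4, 11.2 and 11.7 FPKM in WT and at 10.6, 10.0 and 12.4 FPKM in PGRN KO (log2 change -0.05, 95% interval -0.29 to 0.18), and its sign turned in 3 alternatives.

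Of the tested members with promoter entries, Slc36a1 and Slc38a7 had an E-box within the 250 bases, and none had TCACGTGA. The E-box was in 2 of the 18 windows of all tested members with entries, against 6.02% of the windows over all promoters. For TCACGTGA this background was 0.785%. Windows of 30 bases are shown with the E-box in capitals, for Slc36a1 at chr11:55204298-55204327 on the plus strand and for Slc38a7 at chr8:95853507-95853536 on the minus strand (RefSeq, GRCm38.p6).

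Slc36a1, position -31: gaatggagcggCACGTGacctgggctaggg
Slc38a7, position -34: tgattcaggctCACGTGttacttgagtcgg

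Slc43a3 was the only tested member that passed the threshold as higher. It was at 0.710, 0.530 and 0.646 FPKM in WT and at 2.52, 2.79 and 2.68 FPKM in PGRN KO, which corresponded to 53, 35 and 52 and to 195, 236 and 207 fragments. The groups were far apart, and replicate 6 lay between replicates 4 and 5. Its log2 change on the scale of FPKM + 1, which understates the change of a low gene, was 1.17 ± 0.09 (SE; limma, adjusted p 0.00119), and with voom on the recovered fragments it was 2.07. The gene passed in all 14 alternatives in which it was tested (adjusted p 0.000413 to 0.0140), but it entered the test only through its PGRN KO level, since the WT mean was 0.628 FPKM. It lies on chromosome 2 (84936579 to 84958509, plus strand), 73.0 kb from Slc43a1, another member, which had at most 1 fragment in any library.

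Markers of other cell types moved with genotype as well. The 6 B cell markers summed to 4.79 to 6.08 FPKM in WT and to 19.0 to 24.1 FPKM in PGRN KO, with none at 0 in all libraries, and Ighm, Cd79a and Cd79b passed the test as higher in PGRN KO, the last 2 of which had a WT mean below 1 FPKM and were tested only through their PGRN KO level. Cd79b lost its call without WT replicate 1, 2 or 3 and without PGRN KO replicate 4. The 6 mast cell markers summed to 2.23 to 3.19 and to 9.31 to 13.9 FPKM, and Cma1 and Tpsb2 passed as higher, Cma1 being tested only through its PGRN KO level, while Kit had means of 0.345 in WT and 0.210 in PGRN KO and Ms4a2 was at 0. The 8 neutrophil markers summed to 48.8 to 53.1 and to 21.5 to 26.6 FPKM, but this sum was almost all S100a8, which macrophages can also express and which fell from 49.98 ± 2.46 to 23.3 ± 2.20 FPKM. The other neutrophil markers were at most 0.443 FPKM in any library, S100a9, Camp and Retnlg with higher means in PGRN KO, and Ly6g and Elane at 0. The part of these cell types in the values of Slc43a3 or of the 4 lower genes was not tested. Low sums that were separate between the groups were also found for T cells (2.32 to 2.73 FPKM in WT, 3.66 to 5.13 in PGRN KO), fibroblasts (0.864 to 0.877 and 1.86 to 3.43), endothelial cells (1.46 to 2.11 and 2.31 to 3.19) and, in the other direction, dendritic cells (1.84 to 2.27 and 1.10 to 1.44, with Cd209a at 0). Some means went against the sum of their list. These were Kdr for endothelial cells (0.376 FPKM in WT, 0.341 in PGRN KO) and, for dendritic cells, Zbtb46 (0.550 and 0.698) and Clec9a (0.0361 and 0.0560). Eosinophil and mesothelial markers summed to at most 0.329 FPKM and overlapped, with Prg2, Epx and Lrrn4 at 0. No single gene of these 6 lists passed the threshold, and only 1 T cell and 1 endothelial marker reached the level of the test.

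The remaining tested entries did not pass. Slc38a6 was at 2.00, 1.74 and 1.65 FPKM in WT and at 2.08, 2.21 and 1.63 FPKM in PGRN KO (log2 change 0.09, 95% interval -0.18 to 0.35). Of its sequence words of 31 bases, 40.7% also occur in transcripts of other genes, Noct most of all, so that its values are uncertain. Slc7a6os, which lies 2.01 kb from Slc7a6 on the opposite strand and belongs to a family of proteins that help to import RNA polymerase II, was at 3.12, 2.79 and 3.16 FPKM in WT and at 2.96, 3.13 and 3.76 FPKM in PGRN KO (log2 change 0.09, 95% interval -0.16 to 0.33). Both had overlapping groups.

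In WT the order of levels was Slc3a2, Slc7a8, Slc7a5, Slc1a5, Slc38a2, Slc38a1, Slc7a1, Slc38a7, Slc36a4, Slc38a10, Slc36a1, Slc7a6os, Slc7a7, Slc7a6, Slc38a6 and Slc43a3. Neighbours in this order whose WT libraries overlapped were Slc1a5 and Slc38a2, Slc38a1 and Slc7a1, Slc7a6os and Slc7a7, and Slc7a7 and Slc7a6. Slc3a2 ranked 133 among all 8882 tested genes by mean level, Slc7a8 ranked 651 and Slc43a3 ranked 7674. FPKM is a value per length, so that these levels can be set beside each other.

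Among the 25 members below the level of the test, the last one outside was Slc1a4, with a mean of 0.853 FPKM, and the last one inside was Slc43a3, with 1.65 FPKM. For 6 of the 25, at least 10 fragments were counted per library on average, and these were examined with voom on recovered fragments, a fit chosen after the data were seen in which 22.4% of 11725 genes passed. Slc1a2 (GLT-1), a glutamate carrier best known from astrocytes, had 67, 54 and 62 fragments in WT and 84, 124 and 115 in PGRN KO. Each PGRN KO library was higher, and the log2 fold change was 0.69 ± 0.19 (SE) with a voom adjusted p of 0.0357; in the fit of log2(FPKM + 1) without a filter its level of 0.262 to 0.507 FPKM did not pass.

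Slc38a9, the lysosomal arginine sensor that acts upstream of mTORC1, had 109, 92 and 121 fragments in WT and 202, 200 and 120 in PGRN KO replicates 4, 5 and 6. Replicate 6 lay within the range of WT by this count, which is not scaled to library size. In FPKM every PGRN KO library was higher, at 0.698, 0.632 and 0.416 against 0.372 to 0.401 in WT. The voom adjusted p was 0.0949 (log2 fold change 0.55 ± 0.21, SE). Slc1a4 (ASCT1), a carrier of alanine, serine and cysteine, had 60, 51 and 80 fragments in WT and 54, 46 and 53 in PGRN KO (voom adjusted p 0.169). Slc43a2 (LAT4), Slc36a2 and Slc7a3 (CAT3) had at most 72, 24 and 18 fragments in a library and did not pass, with voom adjusted p of 0.251, 0.787 and 0.116.

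A further 10 members were above 0 with fewer than 10 fragments per library on average. Slc38a4 reached 9 fragments in a library, Slc7a15 and Slc1a1 5 each, Slc36a3 4, Slc3a1 and Slc7a9 2 each, and Slc43a1, Slc7a14, Slc38a8 and Slc7a4 1 each, and a difference was not detectable at this depth. Slc3a1, the heavy chain used in kidney and gut, was thus near absence beside Slc3a2. Slc1a3, Slc1a6, Slc1a7, Slc7a10, Slc7a12, Slc7a13, Slc38a3, Slc38a5 and Slc38a11 had no fragment in any library.

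To place the transporters among related genes, 5 lists were counted in the same fit. Of 18 tested carriers of amino acids and related solutes outside the 6 families, 8 were lower and 2 were higher in PGRN KO, 10 of 18 in all against the background of 24.2%. The median log2 fold change was -0.20. Slc25a44, a mitochondrial carrier of branched-chain amino acids, was at 18.1, 18.7 and 18.9 FPKM in WT and at 8.44, 9.49 and 7.45 FPKM in PGRN KO (log2 change -1.05; limma, adjusted p 0.00154). Slc16a10 (TAT1), a carrier of aromatic amino acids, fell from 3.19 ± 0.179 to 1.21 ± 0.230 FPKM (SD, n = 3 libraries per group), to 37.9% of WT, with a log2 change of -0.93 for FPKM + 1. Slc25a18, a mitochondrial glutamate carrier, fell from 2.00 ± 0.318 to 0.897 ± 0.121 FPKM and, like Slc32a1 among the 8 lower carriers, was tested only through its WT level, and 1.67% of its exon bases lie over the abundant Atp6v1e1 on the opposite strand.

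In this list the carriers that passed as higher were both mitochondrial. Slc25a22, a glutamate carrier, was at 3.43, 3.66 and 3.69 FPKM in WT and at 14.0, 10.3 and 14.4 FPKM in PGRN KO, a 3.59-fold difference (log2 change 1.58; limma, adjusted p 0.00119). Slc25a12, which exchanges aspartate for glutamate, was at 1.87, 2.15 and 1.60 FPKM in WT and at 3.32, 2.78 and 3.77 FPKM in PGRN KO (limma, adjusted p 0.0190), a call lost without WT replicate 1 or 3, without PGRN KO replicate 4 and without a filter. Slc25a22, Slc25a44, Slc16a10 and Slc25a18 kept their calls in all alternatives in which they were tested.

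Of 24 tested genes of amino acid sensing and mTORC1, 6 passed as lower and none as higher, against backgrounds of 13.8% and 10.4%. The median log2 fold change was -0.10. The 3 that fell most belong to the folliculin complex, which regulates the Rag GTPases at the lysosome. Fnip2 was at 59.0, 57.9 and 54.8 FPKM in WT and at 28.8, 30.2 and 16.8 FPKM in PGRN KO (log2 change -1.19; limma, adjusted p 0.00995), and Flcn was at 24.6, 25.7 and 26.5 and at 13.1, 13.9 and 12.5 FPKM (-0.91, adjusted p 0.00142). Both were lower in every PGRN KO library and kept their calls in all 15 alternatives. Fnip1 fell by 0.85 on the log2 scale (limma, adjusted p 0.0492) and passed in 6 of 15 alternatives (0.00230 to 0.144). The count for this list was 2 without any single WT library, 3 without PGRN KO replicate 4 and 11 without replicate 6. Over all 8882 genes the count of 2151 became 713, 855 and 883 without WT replicates 1, 2 and 3. It became 1390 without PGRN KO replicate 4 and 3668 without replicate 6.

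In the amino acid response the kinase GCN2 and the factor ATF4 act when amino acids are scarce. Of 19 tested genes of this response, 5 passed as lower and none as higher, 26.3% in all against the background of 24.2%. The median log2 fold change was -0.22. Atf3, a factor induced by stress, fell from 1156 ± 57.7 to 734 ± 59.7 FPKM, Ppp1r15a, which restores translation after stress, from 130 ± 11.4 to 86.1 ± 13.4 FPKM, and Atf5 from 25.9 ± 1.69 to 17.0 ± 1.92 FPKM (limma adjusted p 0.00818, 0.0214 and 0.0114). Atf5 shares 4.11% of its exon bases with Nup62 on the opposite strand. Atf4 itself was at 267, 275 and 253 FPKM in WT and at 192, 200 and 248 FPKM in replicates 4, 5 and 6 of PGRN KO, without overlap, and did not pass (log2 change -0.32; limma, adjusted p 0.0979; 0.00262 to 0.259 over 15 alternatives). The count of 5 was 0, 1 and 2 without WT replicates 1, 2 and 3, 2 without PGRN KO replicate 4 and 12 without replicate 6. In the same fits the count over all 8882 genes was 713, 855, 883, 1390 and 3668, against 2151 in the main test. Scaled to TPM, 4 genes were lower and 1 was higher, and the same counts were found with the sum of fragments as library size. Of all genes called, 60.3% and 63.0% were higher on these scales, against 42.8% in the main test.

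Of 24 tested enzymes of amino acid and polyamine metabolism, 5 passed as lower and 1 as higher, 25.0% in all against the background of 24.2%. The median log2 fold change was 0.00. Arg2, the mitochondrial arginase, fell from 76.3 ± 7.41 to 45.1 ± 3.33 FPKM, although 20.0% of its exon bases overlap Vti1b on the opposite strand. Odc1, the first enzyme of polyamine synthesis, fell from 829 ± 32.9 to 530 ± 51.5 FPKM, and Cth, which makes cysteine from cystathionine, rose from 1.85 ± 0.179 to 3.19 ± 0.406 FPKM (limma, adjusted p 0.00536, 0.00866 and 0.0140). The count was 1 and 2 without WT replicates 1 and 2. In these fits 713 and 855 of all 8882 genes passed, against 2151 in the main test. The split of 1 higher and 5 lower became 1 higher and 2 lower on a TPM scale, where the median change was 0.05. On that scale 923 of all genes were higher and 608 lower, against 921 and 1230 in the main test. The median change over all genes was 0.02 there and -0.03 in the main test.

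All 20 cytosolic aminoacyl-tRNA synthetases, which load amino acids onto tRNA, were tested, and 4 were higher and 4 lower in PGRN KO, where the backgrounds were 10.4% and 13.8%. Kars, Wars and Vars, for lysine, tryptophan and valine, rose to 12.1 ± 2.01, 73.6 ± 7.94 and 6.00 ± 0.595 FPKM from 6.97 ± 0.215, 47.5 ± 1.80 and 4.13 ± 0.0902 FPKM (limma, adjusted p 0.00944, 0.00850 and 0.0172). Nars, Cars and Tars, for asparagine, cysteine and threonine, fell from 216 ± 4.93, 21.6 ± 1.07 and 12.4 ± 0.558 FPKM to 153 ± 11.7, 15.5 ± 2.39 and 9.20 ± 0.230 FPKM (limma, adjusted p 0.0125, 0.0322 and 0.0154). Cars and Tars passed in only 7 and 9 of 15 alternatives. Vars and Nars passed in 12 each and lost their calls without WT replicate 1, 2 or 3. Wars lost its call without WT replicate 1, and Kars passed in all 15. The balance of directions depended on scaling, with 4 higher and 2 lower on a TPM scale and 5 higher and 1 lower with the sum of fragments as library size. Over all genes called, the share that was higher moved as well, from 42.8% in the main test to 60.3% and 63.0%. The count of 8 was 1, 2 and 2 without WT replicates 1, 2 and 3, 4 and 5 without PGRN KO replicates 4 and 5, and 14 without replicate 6. Over all 8882 genes the counts in these fits were 713, 855, 883, 1390, 1601 and 3668, against 2151 in the main test.

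**Figure D4:**
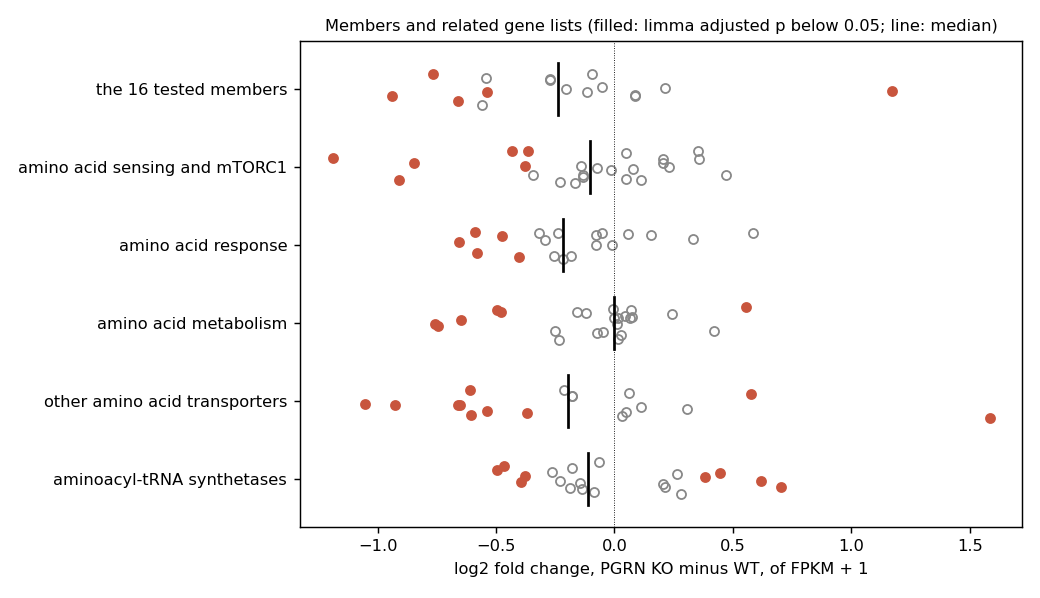
Log2 fold change (PGRN KO minus WT, of FPKM + 1) of each tested gene among the 16 transporters and the 5 related lists; filled points passed an adjusted p of 0.05, open points did not, black lines are medians, and vertical scatter within a row has no meaning. Medians run from -0.24 for the transporters to 0.00 for amino acid metabolism, and the point farthest to the right is Slc25a22 at 1.58.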

How the data were processed

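Polyadenylated RNA of 6 libraries was sequenced. The authors aligned reads with HISAT and counted fragments with HTSeq per the methods of the study, whereas the submitters' processing notes name HISAT2 2.0.5, featureCounts 1.5.0-p3, DESeq2 1.20.0, mm10 and GRCm38. The deposited values are FPKM, so a count test was not the main test. Multiplied by gene length, 100% of the values above 0 were whole numbers of a library-specific step (tolerance 0.001), which gave the fragments. The library size used by the authors was 0.925 to 1.09 times their sum. Of the identifiers, 99.9% were in GENCODE M21 (GRCm38), 98.1% of them with the same coordinates.

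log2(FPKM + 1) was fitted with limma 3.58.1 in R 4.3.3 (variance trend, no covariates, two-sided, Benjamini-Hochberg adjustment over 8882 genes, threshold 0.05), after tests on simulated data. Alternatives were a pseudocount of 0.1, no filter, a mean of at least 5 FPKM, a TPM scale, the sum of fragments as library size, voom on fragments, no variance trend, a loess correction for gene length (span 0.5), each library left out, and, chosen after seeing the data, voom with at least 10 fragments on average. Genes of the related lists were named by a rule, the 3 largest changes past the threshold in each direction and Atf4. A single gene under this rule stays unnamed and is only counted. The transporter families, lists, motifs and rules were chosen with earlier results of these data known. Slc66a1 was matched by its older symbol. Standard errors from voom on fragments measure the spread between these libraries, as those from the main fit do.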

Additional observations from a re-analysis of the deposited data

How the results depend on the processing

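No paired analysis was possible because no replicate number occurs in both genotypes. Over all genes 2151 passed, 1366 without a filter, which adjusts over more genes, and 713 to 3668 with each library left out. The same count was 1531 on a TPM scale, 1880 with the sum of fragments and 2814 after the correction for gene length. At a mean of at least 5 FPKM it was 1482 of 4855. The 5 transporters became 4 to 8 with each library left out, of which 3 to 7 lower and 1 to 1 higher; the higher count was 0 with a mean of at least 5 FPKM, where Slc43a3 is not tested, and 2 with voom at 10 or more fragments, where Slc1a2 is. Genes of amino acid sensing and mTORC1 past the threshold numbered 2 when scaled to TPM and 3 with the sum of fragments as library size (2 to 11 with each library left out), and those of the amino acid response 9 after the correction for gene length (0 to 12). Amino acid metabolism gave 3 with a mean of at least 5 FPKM and 3 on a TPM scale (1 to 8), other amino acid transporters 5 with a mean of at least 5 FPKM (7 to 12), and aminoacyl-tRNA synthetases 5 without a filter (1 to 14). Where a filter was raised fewer genes were tested; otherwise the cause was not tested. Of all genes called, 42.8% were higher in the main test, 60.3% after scaling to TPM and 63.0% with the sum of fragments.

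Slc7a8 changed sign with the sum of fragments as library size (0.00274) and without PGRN KO replicate 6 (range with each library left out, -0.22 to 0.0488), and Slc38a10 with the sum of fragments (0.039), after the correction for gene length (0.029) and without PGRN KO replicate 5 (range -0.13 to 0.00889); neither passed in any of these. Over the 16 transporters, 214 values kept direction and call, 9 passed only in the alternative, 6 only in the main test and 5 changed sign. Depth limits the 10 members with fewer than 10 fragments on average.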

Other observations

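Further genes of the related lists also passed the threshold, and none of them falls under the rule for named genes. Farsb rose from 13.5 ± 0.473 to 18.0 ± 2.09 FPKM (SD, limma adjusted p 0.0372), a call lost without WT replicate 1, 2 or 3. Rragd, Lamtor3, Yars, Slc15a4, Slc32a1, Shmt1 and Cdo1 fell, Slc32a1 and Shmt1 being tested only through their WT level. The genes described next, all of which fell, were chosen after their values were seen. Asns, which makes asparagine with glutamine as donor, fell from 123 ± 3.50 to 93.0 ± 4.99 FPKM (SD, n = 3 each), Sesn2, a leucine sensor, from 60.6 ± 1.53 to 44.6 ± 1.15 FPKM, and Chac1, which degrades glutathione, from 36.9 ± 3.72 to 26.3 ± 2.70 FPKM (limma adjusted p 0.0184, 0.0109 and 0.0278). Without WT replicate 1, 2 or 3 none of these 3 genes passed; Asns also lost its call without PGRN KO replicate 4 or 5 and Chac1 without replicate 4, and their adjusted p over 15 alternatives reached 0.103, 0.0714 and 0.101. Among carriers, Slc6a8, which takes up creatine, fell from 69.4 ± 0.604 to 45.2 ± 2.25 FPKM, Slc6a6, which takes up taurine, from 27.7 ± 0.725 to 19.0 ± 3.40 FPKM, and Ctns, which exports cystine from lysosomes, from 7.66 ± 0.353 to 4.51 ± 0.450 FPKM (limma adjusted p 0.00433, 0.0289 and 0.00536). Slc6a8 and Ctns passed in all 15 alternatives, whereas Slc6a6 passed in 8 and was lost without WT replicate 1, 2 or 3 and without PGRN KO replicate 5 (adjusted p 0.00654 to 0.115).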
